A study of Mus musculus with 4 samples.

Results

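The genes of Wnt signalling were examined in livers of newborn mice that lack the Hippo kinases Lats1 and Lats2. Every gene whose annotated symbol is Wnt or Fzd followed by a digit was taken, together with Lrp5, Lrp6, Sfrp1, Sfrp2, Sfrp5, Dkk1, Dkk3, Axin2, Lef1, Tcf7, Tcf7l2, Lgr5, Rnf43, Znrf3 and Glul. Of 45 gene symbols that fit this rule 41 had a probe, among 16593 genes with a named probe. Fzd5, Fzd9, Tcf7 and Fzd10os had none. The 41 genes were 19 ligands, 8 Frizzled receptors, 2 co-receptors, 5 secreted inhibitors, 2 transcription factors and 5 target genes, read by 58 probes, and are called the Wnt module here.

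Total RNA from whole liver at postnatal day 1 was measured on 4 Illumina MouseRef-8 v2.0 bead arrays, which carry many copies of a short probe for each transcript and report its brightness (intensity). The 2 control arrays are labelled wild type. The 2 double-knockout (DKO) arrays are labelled Lats1-/-;Lats2f/fl;Alb-cre, that is, without Lats1 in any cell and with Lats2 removed where the albumin gene's promoter drives Cre recombinase, in hepatoblasts, hepatocytes and the biliary cells that descend from hepatoblasts. Blood, endothelial and stellate cells of the DKO livers lacked Lats1 and should have kept Lats2. All 4 samples are labelled mixed B6;129 and female, and the growth protocol has the newborns come from shared mothers. LATS1 and LATS2 phosphorylate and restrain YAP and TAZ, so the comparison asks how the Wnt genes stood in livers whose albumin-expressing cells were bred to lose this restraint.

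Wnt proteins are secreted ligands that carry a lipid added by the acyltransferase PORCN. They bind Frizzled receptors together with the co-receptors LRP5 and LRP6. In the canonical branch this stabilises β-catenin, which enters the nucleus and activates genes with TCF and LEF factors. Axin2, Lgr5, Rnf43 and Znrf3 are such target genes and feed back on the pathway. In the adult liver, Wnt ligands from endothelial cells of the central vein maintain the pericentral programme of hepatocytes, of which Glul (glutamine synthetase) is the best known gene. Other ligands, among them Wnt4, Wnt5a and Wnt11, are also known for signalling that does not pass through β-catenin.

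The 3 member genes of largest positive change for which a promoter sequence was at hand are shown here through their promoters, since YAP and TAZ act on genes through DNA-bound partners and β-catenin does so through TCF and LEF factors. Each runs from 250 bases before to 50 bases after the annotated transcript start and is written 5′ to 3′ on the gene's strand (RefSeq, GRCm38.p6). The stretches lie at chr4:137277385-137277684 on the plus strand (Wnt4), chr6:91411304-91411603 on the minus strand (Wnt7a) and chr1:59481897-59482196 on the plus strand (Fzd7). Capitals mark a match to the TCF/LEF core, bases 122 to 127 of the Fzd7 stretch, which reads CTTTGT on the opposite strand.
Wnt4: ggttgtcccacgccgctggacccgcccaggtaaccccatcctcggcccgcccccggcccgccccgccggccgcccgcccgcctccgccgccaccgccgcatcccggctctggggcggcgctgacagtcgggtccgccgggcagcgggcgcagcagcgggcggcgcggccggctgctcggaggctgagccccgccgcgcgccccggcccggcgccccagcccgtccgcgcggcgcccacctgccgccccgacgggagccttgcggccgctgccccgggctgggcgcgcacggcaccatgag
Wnt7a: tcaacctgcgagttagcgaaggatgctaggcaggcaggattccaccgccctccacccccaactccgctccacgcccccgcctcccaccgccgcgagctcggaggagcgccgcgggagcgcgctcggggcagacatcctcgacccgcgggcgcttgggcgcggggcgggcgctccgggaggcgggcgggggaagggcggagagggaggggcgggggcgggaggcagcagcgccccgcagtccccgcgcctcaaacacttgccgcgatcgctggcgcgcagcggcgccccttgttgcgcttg
Fzd7: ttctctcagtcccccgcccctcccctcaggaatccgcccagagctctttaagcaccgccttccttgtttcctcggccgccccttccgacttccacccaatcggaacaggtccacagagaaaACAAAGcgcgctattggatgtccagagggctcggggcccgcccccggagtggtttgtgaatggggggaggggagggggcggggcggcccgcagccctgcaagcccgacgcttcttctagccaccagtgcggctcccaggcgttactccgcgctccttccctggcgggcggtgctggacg

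The GC content was 84.3% in the Wnt4 stretch, 76% in Wnt7a and 66.7% in Fzd7, with 51, 42 and 24 CG dinucleotides. Over the 35 promoters listed for 27 of the 41 genes the median was 66.3% GC and 23 CG dinucleotides, against 52.7% and 7 over all 32851 promoters of the table. The TCF/LEF core was searched as CTTTGA or CTTTGT on both strands and was found in 9 of the 35 promoters (25.7%), against 31.2% of all promoters. The core bound by TEAD factors, the DNA-binding partners of YAP and TAZ, was searched as GGAATG on both strands. It was found in 1 of the 35, a Wnt5b promoter (2.86%), against 14.7% of all promoters, and in none of the 3 shown. These are matches of letters in a short window, not measured binding sites.

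Each array detected 48.7% to 53.1% of its 25697 probes (detection p under 0.05), and a gene was tested if a probe of it was detected on 2 or more of the 4 arrays (9502 genes). Values below are normalized intensities on the log2 scale, and a change is DKO minus control. Over the tested probes, arrays of 1 group correlated at a Pearson's r of 0.95 and arrays of different groups at 0.86 to 0.92. In control replicate 2 the Y-linked gene Eif2s3y stood at 11.31 against 4.69 to 4.94 on the other arrays, and Xist read 5.16 there against 9.07 to 9.86, so this array went against its label of female. For some of the genes, results are therefore also given without it. The Lats2 probe was detected on 3 arrays and read 5.92 and 5.47 in controls and 6.54 and 6.07 in DKO livers, a change of 0.61 (SE 0.37, limma adjusted p = 0.531). Where this probe lies relative to the deleted part of the gene is unknown here, so it checks nothing, and Lats1 had no named probe. The labels do not say that each array is a separate animal. The 2 controls differed in Eif2s3y and Xist as given above, so they were not repeats of the same RNA. For the 2 DKO arrays this is unknown, and their differences could come from the measurement alone. The p-values therefore measure the spread between these samples only. In whole tissue, fewer cells of a type and less RNA per cell cannot be told apart.

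Few Wnt genes were detected on enough arrays to be tested. Of the 41 genes, 9 were detected on all 4 arrays, 3 on 2 or 3 arrays, 10 on 1 array and 19 on none. Thus 12 could be tested, while 57.3% of all genes with a probe passed the same filter and 47.5% were detected on all 4 arrays. The number detected per array was 14 and 13 in controls and 14 and 12 in DKO livers. Of the 12 tested genes 2 rose in DKO livers (Wnt4 and Wnt7b) and 0 fell by limma at an adjusted p under 0.05. Across all tested genes 1.75% rose and 1.68% fell. Without control replicate 2 only Wnt7b passed. Both calls were lost without background correction (adjusted p = 0.0661 for Wnt4 and 0.102 for Wnt7b) and with the authors' normalized values (0.0643 and 0.0934). At an unadjusted p under 0.05, 4 of the 12 were higher (Wnt7a and Fzd7 besides) and 0 lower, against 16.1% of all genes in either direction. Wnt7a and Wnt7b entered the test only through the DKO arrays, so the 12 are not a sample of the 41. By the probe used per gene, these 2 of the 41 genes were detected on both DKO arrays and neither control array. So were 1.6% of all genes. The reverse applied to 0 of the 41 and to 0.856% of all genes. The median change of the 12 genes was 0.18, against 0.0046 over all genes tested.

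**Figure D1:**
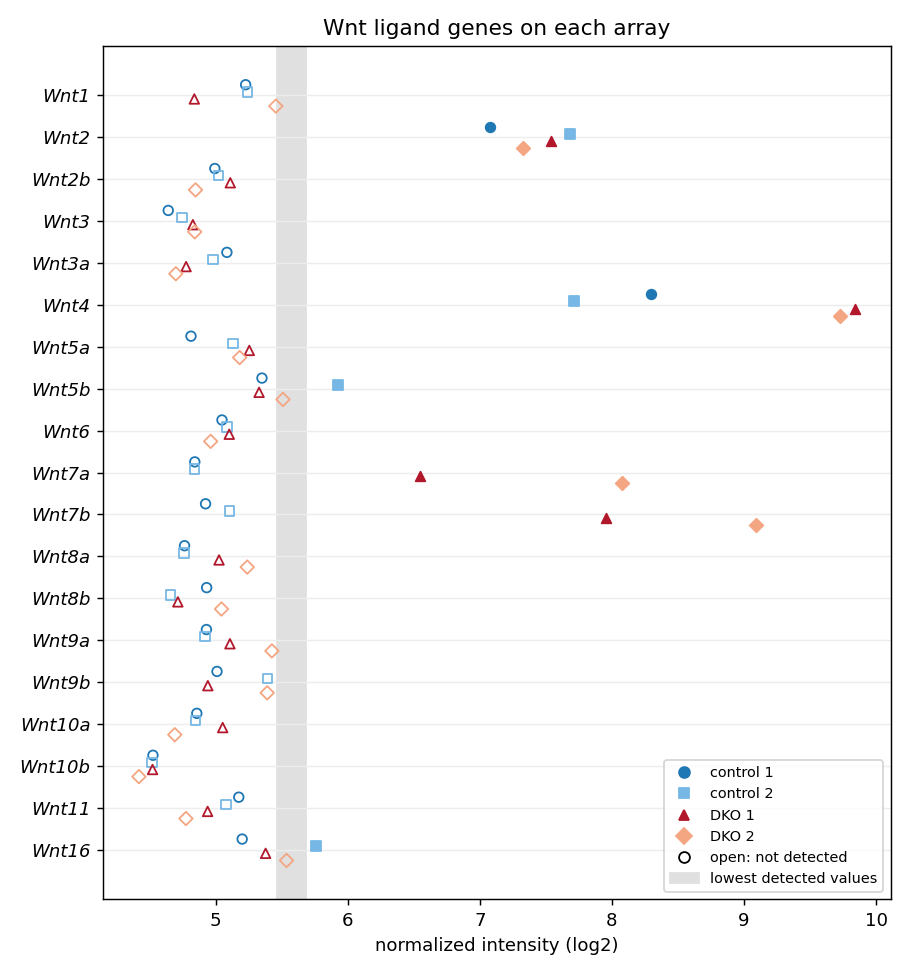
Normalized log2 intensity of the 19 Wnt ligand genes on each of the 4 arrays (filled marks, detected; open marks, not detected; grey band, the lowest detected value per array, 5.46 to 5.69). Wnt4, Wnt7a and Wnt7b are higher on both DKO arrays, Wnt2 overlaps between the groups and the other 15 ligands lie between 4.42 and 5.93.

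The ligands separated into a few that were measured and many that were not. Wnt7b, a ligand known from developing lung, kidney and other epithelia, showed the largest change of the 41 genes. It read 4.92 and 5.11 in controls and 7.95 and 9.09 in DKO livers. The linear intensities before normalization were 166.7 and 179.1 against 397.1 and 674.9. The array's own detection p-values, which set a probe against the background, were 0.435 and 0.261 in controls and 0 in both DKO livers. Both controls were thus below detection with this probe. Its fitted change was 3.51 (SE 0.45, limma adjusted p = 0.00897). This corresponds to at least 7.57-fold higher expression when the control level is set no lower than the lowest detected signal. A bound of this kind compares the mean of the bright group with that of the dim group after each dim array is raised, where needed, to its own lowest detected value.

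Wnt7b was higher in DKO replicate 2 than in DKO replicate 1. The bound was 11.4-fold without DKO replicate 1 and 5.17-fold without DKO replicate 2. Without control replicate 2 the change was 3.64 (adjusted p = 0.0407), and without control replicate 1 it was 3.34 and no longer passed (adjusted p = 0.0609). A second Wnt7b probe (ILMN_2456957) read 4.96 and 5.98 in controls and 6.19 and 6.84 in DKO livers. Its groups did not overlap, but its change of 1.04 (SE 0.46) did not pass (adjusted p = 0.347).

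Wnt4, a ligand with roles in kidney tubule formation and female reproductive development, was the only ligand besides Wnt2 that was detected on every array. It read 8.30 and 7.71 in controls and 9.84 and 9.72 in DKO livers, that is 513.2 and 338.9 against 1066.9 and 959.3 in linear intensity. Both DKO values were above both control values and lay close to each other. Wnt4 was 3.43-fold higher in DKO livers (change 1.78, SE 0.36, adjusted p = 0.0498), which is close to the threshold. A second probe (ILMN_2512663) read 7.40 and 7.36 against 9.10 and 9.01, a change of 1.68 (SE 0.33, adjusted p = 0.0427). The call of the first probe was lost when any 1 of the 4 arrays was left out, with changes of 2.06 without control replicate 1, 1.49 without control replicate 2, 1.72 without DKO replicate 1 and 1.83 without DKO replicate 2 (adjusted p = 0.103, 0.214, 0.0866 and 0.0968).

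Wnt7a, the closest relative of Wnt7b, was below detection in both controls at 4.84 and 4.84 and was detected on both DKO arrays at 6.55 and 8.07. In linear intensity it read 162 and 165.5 against 246 and 415. As for Wnt7b, the groups did not overlap and DKO replicate 2 was the higher of the DKO arrays. The change of 2.47 (SE 0.52) fell just short of the threshold (adjusted p = 0.0548), with a bound of at least 3.27-fold higher. The bound was 5.60-fold without DKO replicate 1, 1.95-fold without DKO replicate 2 and 3.53-fold without control replicate 2. These are effect sizes only, since such a fit leaves 1 array in a group and both controls were at background.

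Wnt2, a ligand that sinusoidal endothelial cells of the liver are known to express, read 7.08 and 7.68 in controls and 7.54 and 7.33 in DKO livers. The groups overlapped and the change was 0.06 (SE 0.37, adjusted p = 0.981). Of 11 endothelial markers tested on the same arrays limma called 0, while 2 were lower in DKO livers at an unadjusted p under 0.05. Of all genes tested 16.1% had such a p in either direction. Of the 11 markers 7 had both DKO values under the controls and 1 both over, against 22.8% and 22.7% of all genes tested. Kdr, 1 of the 7, entered the test only through the controls. The median change of the 11 was -0.49. Their normalized values, taken out of log2 and summed, came to 10908 and 8551 in controls and 8409 and 6106 in DKO livers. All summed levels below were made in this way. The remaining 15 ligands, among them Wnt9b, Wnt5a and Wnt11, could not be tested. Wnt5b and Wnt16 were detected on 1 array each, control replicate 2, and the other 13 on none. In 4 of the 15 both DKO values were higher than both control values and in 2 both were lower, against 22.7% and 22.8% of all genes tested. All but the 2 single detections were below the detection limit.

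**Figure D2:**
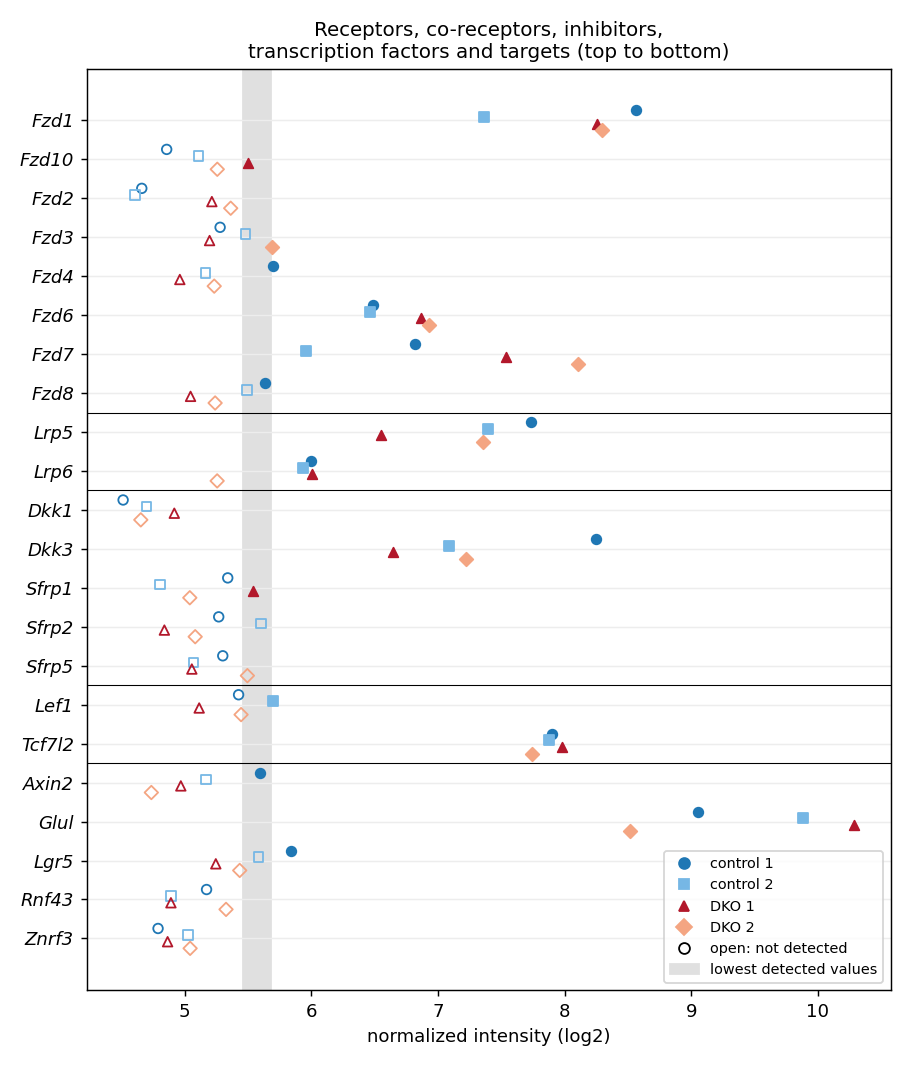
Normalized log2 intensity of the 22 receptors, co-receptors, inhibitors, transcription factors and target genes on each array, with lines between these 5 classes (filled marks, detected; open marks, not detected; grey band, the lowest detected value per array). Fzd7 is higher on both DKO arrays, Glul spans 8.51 to 10.28 within the DKO group, and Axin2 and Lgr5 lie at the edge of detection.

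Among the Frizzled receptors Fzd1, Fzd6 and Fzd7 were detected on all 4 arrays. Fzd7, a receptor known from stem cells and epithelia, had the largest change of the 3. It read 6.82 and 5.95 in controls and 7.54 and 8.10 in DKO livers (278.5 and 209.1 against 339.1 and 421.4 in linear intensity). The groups did not overlap, and the change of 1.43 (SE 0.43) had an unadjusted p of 0.0115 and did not pass after adjustment (adjusted p = 0.152). Leaving out control replicate 2 gave 0.99 and leaving out control replicate 1 gave 1.85. The promoter shown above with a TCF/LEF core is that of Fzd7.

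Fzd6 read 6.49 and 6.47 in controls and 6.86 and 6.93 in DKO livers, a small separation without overlap (change 0.42, SE 0.33, adjusted p = 0.644). Fzd1 overlapped at 8.57 and 7.37 against 8.26 and 8.30, and its change of 0.31 turned to -0.28 without control replicate 2. The other 5 Frizzled genes with a probe (Fzd2, Fzd3, Fzd4, Fzd8 and Fzd10) were not tested, with values between 4.61 and 5.70. Fzd4 and Fzd8 were detected in control replicate 1 only, Fzd10 in DKO replicate 1 only and Fzd3 in DKO replicate 2 only.

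Both co-receptors were tested and neither passed. Lrp5 read 7.74 and 7.40 in controls and 6.55 and 7.36 in DKO livers, without overlap (change -0.61, SE 0.40, adjusted p = 0.567). It was the only 1 of the 12 tested genes whose DKO values both lay under the controls, against 22.8% of all genes tested. In 5 of the 12 both DKO values lay over the controls, against 22.7% of all genes tested. Among these 5 are Wnt7a and Wnt7b, which entered the test only through the DKO arrays, so the count is not comparable with that share. Lrp6 was dimmer and overlapped (5.99 and 5.94 against 6.0 and 5.26, change -0.34), with DKO replicate 2 below detection.

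Of the secreted inhibitors only Dkk3, a divergent member of the Dickkopf family, could be tested. It read 8.25 and 7.09 in controls and 6.65 and 7.22 in DKO livers. The groups overlapped because control replicate 2 was low, and the change of -0.73 (SE 0.47) did not pass (adjusted p = 0.563). A second probe gave -0.40 and another was not detected. Without control replicate 1 the change of the first probe was -0.14, and without control replicate 2 it was -0.99. Dkk1, Sfrp1, Sfrp2 and Sfrp5 lay between 4.52 and 5.60, and of these only Sfrp1 was detected, in DKO replicate 1.

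Tcf7l2, a TCF factor expressed in hepatocytes and many other cells, was level across the arrays at 7.90, 7.88, 7.98 and 7.74 (change -0.03, SE 0.33). A second probe read lower in DKO livers, 6.90 and 7.17 against 6.59 and 6.40, and did not pass (change -0.54, SE 0.34, adjusted p = 0.549). Lef1 was detected in control replicate 2 only (5.12 to 5.70).

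None of the target genes passed, and of 5 only Glul was bright enough to test. Axin2, a negative regulator that is induced by β-catenin in most tissues, read 5.60 and 5.17 in controls and 4.97 and 4.74 in DKO livers, with linear intensities of 199.6 and 181.7 against 170 and 160.3. Lgr5, a receptor for R-spondins and a marker of stem cells and of pericentral hepatocytes, read 5.84 and 5.59 against 5.25 and 5.44. For both genes the DKO values were below both control values, but each was detected in control replicate 1 alone and was not tested. Differences of the means were -0.53 for Axin2 and -0.37 for Lgr5. Rnf43 and Znrf3, ubiquitin ligases that remove Frizzled receptors from the cell surface, were detected on no array.

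Glul was by contrast bright and variable. It read 9.05 and 9.88 in controls and 10.28 and 8.51 in DKO livers, so that the highest and the lowest of the 4 values were both DKO. The linear intensities were 759.2 and 998.3 against 1402.3 and 507. The change was -0.07 with an SE of 0.61, the largest SE among the 12 tested genes, and the adjusted p was 0.988. Without DKO replicate 1 the change was -0.95, without DKO replicate 2 it was 0.82, and without control replicate 2 it was 0.35. The spread within the DKO group exceeded the difference between the groups.

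**Figure D3:**
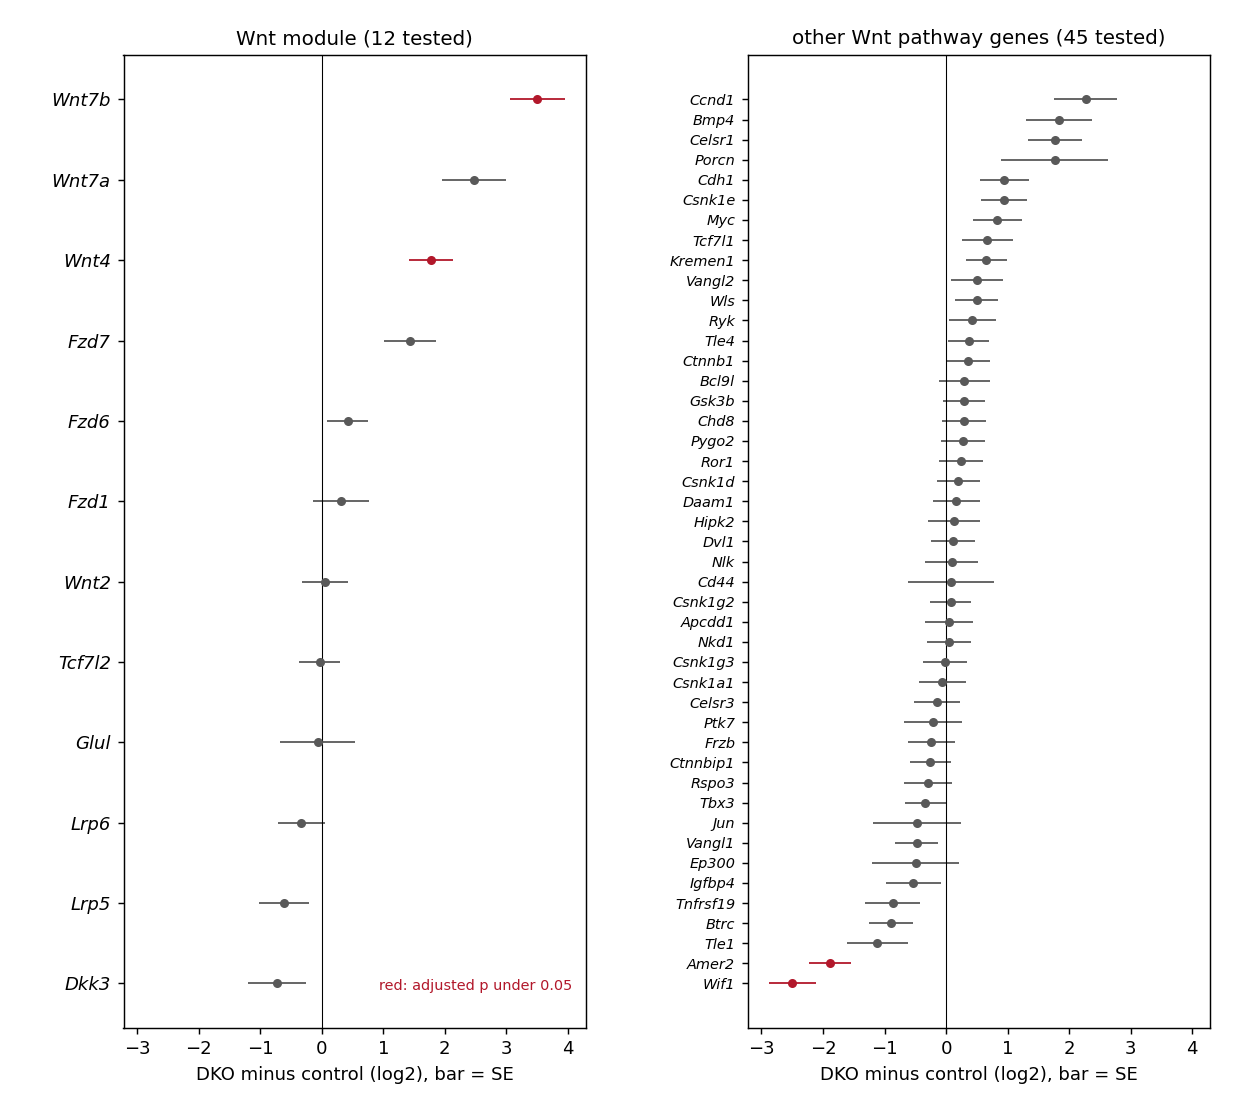
Change (DKO minus control, log2) with its standard error for the 12 tested genes of the Wnt module (left) and the 45 other tested Wnt pathway genes (right). Wnt4 and Wnt7b pass on the left, Wif1 and Amer2 on the right, both lower in DKO livers.

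The wider pathway was described with a list of 89 further genes for secretion, R-spondins, inhibitors, cytoplasmic and nuclear partners, the branch without β-catenin and targets in other tissues. Of these 83 had a probe and 45 were tested. By limma 0 rose and 2 fell, and at an unadjusted p under 0.05 the counts were 5 and 3, or 8 of 45, against 16.1% of all genes. The median change was 0.11. The genes that fell were Wif1, which encodes a secreted inhibitor that binds Wnt proteins directly, and Amer2, a membrane adaptor of the APC protein. Both were below detection in DKO livers and entered the test only through the control arrays. Their count is therefore not comparable with a share of all genes. Wif1 read 8.22 and 7.47 in controls and 5.42 and 5.29 in DKO livers, where it was below detection on both arrays. It was at least 4.94-fold lower (change -2.50, SE 0.38, adjusted p = 0.0175). Without control replicate 2 it was at least 6.49-fold lower, and without control replicate 1 at least 3.70-fold lower, where the call was lost (adjusted p = 0.103), as it was without background correction (change -1.03, adjusted p = 0.117). Amer2 read 7.13 and 6.82 against 5.07 and 5.11 and was at least 2.70-fold lower (adjusted p = 0.0303). The call for Amer2 was lost without any 1 of the 4 arrays, and its second probe did not pass (-0.60, SE 0.34, adjusted p = 0.5).

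The largest rises of that list did not pass. Ccnd1, which encodes cyclin D1, read 9.29 and 9.77 in controls and 11.08 and 12.52 in DKO livers (change 2.27, SE 0.52, adjusted p = 0.0721), and of its further probes 1 passed (2.31, adjusted p = 0.0427) and 1 did not (2.10, adjusted p = 0.0974). Bmp4, the gene of a bone morphogenetic protein, read 6.30 and 7.33 against 8.02 and 9.27 (change 1.83, SE 0.54, adjusted p = 0.149). For both genes DKO replicate 2 was again the highest array. Without DKO replicate 1 the changes were 2.99 for Ccnd1 and 2.48 for Bmp4, and without DKO replicate 2 they were 1.54 and 1.20. Without control replicate 2 they were 2.49 and 2.34. Porcn and Celsr1 were singled out after their values were seen. Porcn, the acyltransferase of Wnt proteins, read 8.61 and 7.70 against 11.38 and 8.46. Its change of 1.76 (SE 0.87, adjusted p = 0.418) rested on DKO replicate 1 and was 0.31 without that array and 3.22 without DKO replicate 2, where it passed (adjusted p = 0.00154). Celsr1, a cadherin of planar cell polarity, read 5.52 and 6.26 against 7.25 and 8.06 (change 1.77, SE 0.44, adjusted p = 0.0924). Its change was 2.19 without DKO replicate 1, 1.37 without DKO replicate 2 and 2.16 without control replicate 2. Wls, which carries Wnt proteins to the cell surface, had a change of 0.49, Ctnnb1, the gene of β-catenin, 0.36 and Rspo3, an R-spondin of central vein endothelium, -0.30. None of these 3 passed.

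**Figure D4:**
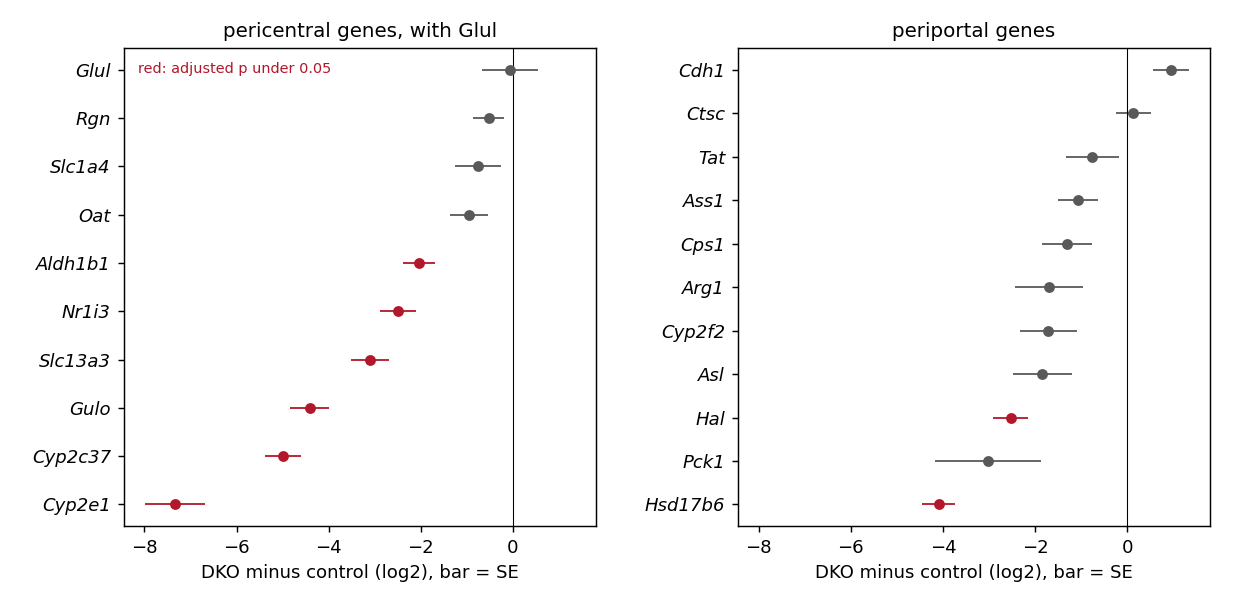
Change (DKO minus control, log2) with its standard error for Glul and 9 other tested pericentral genes (left) and 11 tested periportal genes (right). The zones are those of the adult liver. Red marks an adjusted p under 0.05. Of the pericentral genes 6 fell, from Aldh1b1 at -2.05 to Cyp2e1 at -7.34, while Glul lies at -0.07.

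Glul was set beside other genes of liver zonation. In the adult liver, pericentral genes are those that Wnt signals are known to maintain and periportal genes those found at the opposite end of the lobule. These livers were at postnatal day 1, and the position of expression in the lobule was not measured. Of 9 other pericentral genes tested 6 fell and 0 rose, with a median change of -2.49 (-2.30 with undetected genes at their bounds). Cyp2e1, a cytochrome P450 of ethanol oxidation, read 13.88 and 12.27 in controls and 6.43 and 5.04 in DKO livers (change -7.34, SE 0.65, adjusted p = 0.00329), with DKO replicate 2 below detection. Leaving out 1 array gave changes from -8.11 (control replicate 2) to -6.51 (control replicate 1). Cyp2c37, Gulo, Slc13a3, Nr1i3 and Aldh1b1 also fell (-4.99, -4.41, -3.10, at least 4.92-fold lower and -2.05), and Oat, Slc1a4 and Rgn did not pass (-0.95, -0.76 and -0.52). Cyp2c37, like Cyp2e1, was below detection in DKO replicate 2 and was at least 32.1-fold lower without DKO replicate 1. A further probe of Cyp2c37 did not pass (-0.997, adjusted p = 0.249), and probes of the closely related Cyp2c genes may bind each other's transcripts. Of 11 periportal genes 2 fell and 0 rose, with a median of -1.69: Hsd17b6, at least 13.4-fold lower, and Hal, the histidine-degrading enzyme (-2.53, SE 0.37, adjusted p = 0.0151). At an unadjusted p under 0.05 6 of 9 pericentral and 7 of 11 periportal genes were lower and 0 and 1 higher. Of all genes tested 16.1% had such a p in either direction, and 1.68% passed as lower after adjustment. Nr1i3 and Hsd17b6 were below detection in DKO livers and entered the test only through the controls. The counts that hold them are therefore not strictly comparable with these shares. In each list 8 genes had both DKO values under the controls, against 22.8% of all genes tested. Whether the pericentral and periportal genes differed in their fall was not tested. Without control replicate 2, 5 genes of the 20 passed lower in place of 8, and the calls for Aldh1b1, Hal and Slc13a3 were lost (changes -1.83, -2.26 and -2.80). Without control replicate 1 those for Aldh1b1, Hal and Nr1i3 were lost (-2.25, -2.79 and -2.08), without DKO replicate 2 that for Aldh1b1 (-1.996) and without background correction that for Nr1i3 (-1.03). Of 9 tested hepatocyte markers 2 fell, Cyp2e1 and the asialoglycoprotein receptor gene Asgr1 (-5.36, SE 0.38, adjusted p = 0.00304). The median change of the 9 was -0.83, and 5 of them had both DKO values under the controls, against 22.8% of all genes tested. Their summed level, from normalized values taken out of log2, was 198345 and 169128 in controls and 153538 and 138724 in DKO livers. Most of this sum came from the very bright Ttr, Apoa1 and Serpina1a, with changes of 0.03, -0.08 and -0.35.

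**Figure D5:**
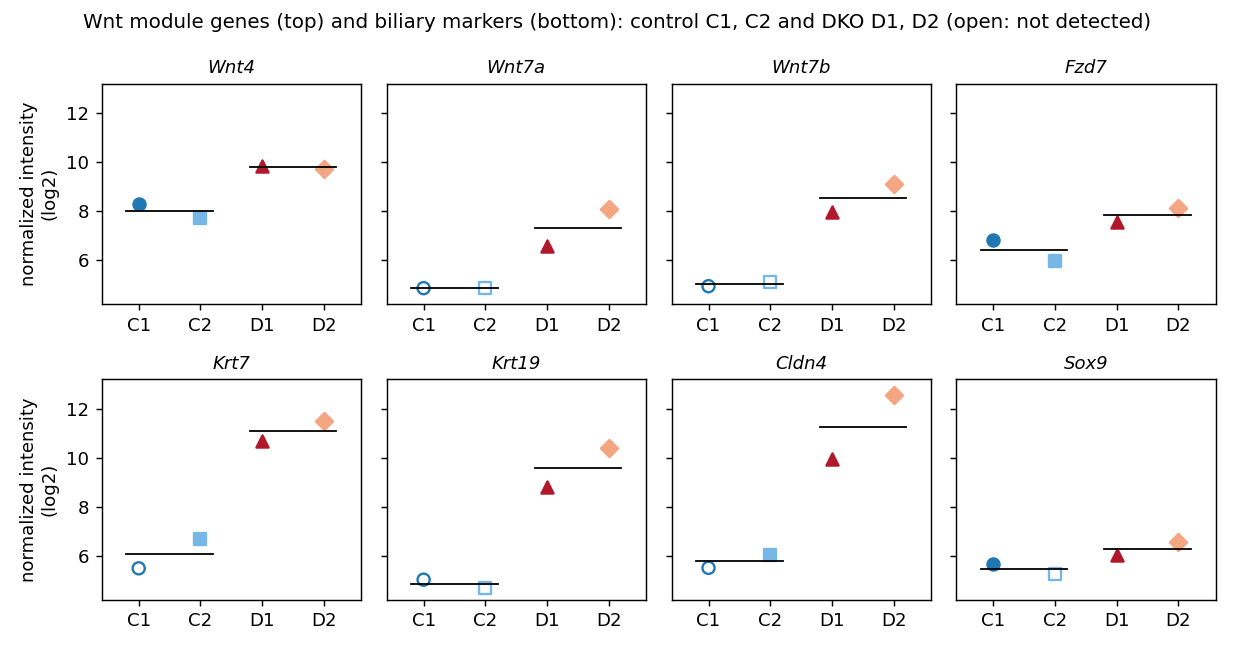
Normalized log2 intensity of Wnt4, Wnt7a, Wnt7b and Fzd7 (top) and of the biliary markers Krt7, Krt19, Cldn4 and Sox9 (bottom) on control arrays C1 and C2 and DKO arrays D1 and D2 (lines, group means; open marks, not detected). All 8 genes have higher group means in DKO livers, and all but Wnt4 are higher in DKO replicate 2 than in DKO replicate 1.

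The livers also differed in markers of other cells. Of 8 biliary markers 4 had a probe, all 4 were tested and 3 rose, against 1.75% of all genes tested. Krt19, 1 of the 3, entered the test only through the DKO arrays, so the count is not comparable with that share. Krt7 read 5.48 and 6.69 in controls and 10.68 and 11.50 in DKO livers, Krt19 5.02 and 4.67 against 8.79 and 10.39, and Cldn4 5.50 and 6.04 against 9.95 and 12.57. Sox9 read 5.64 and 5.25 against 6.01 and 6.56 and did not pass (adjusted p = 0.35). The summed level of the 4 markers, from normalized values taken out of log2, was 172 and 232 in controls and 3132 and 10423 in DKO livers. Krt19 was below detection in both controls, as were Wnt7a and the first Wnt7b probe. Wnt7a, Wnt7b and Fzd7, like the 4 biliary markers, were higher in DKO replicate 2 than in DKO replicate 1, whereas Wnt4 was slightly lower there. Of the 12 tested Wnt genes 7 were higher and 5 lower in DKO replicate 2 than in DKO replicate 1. The part of the biliary cells in the values of these Wnt genes was not tested.

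By limma 0 markers passed in the lists of stellate cells and fibroblasts (11 tested), macrophages (4), erythroid cells (5), granulocytes (6) and lymphoid cells (6). The stellate and fibroblast marker Thy1 was below detection in both controls and entered the test only through the DKO arrays. At an unadjusted p under 0.05 they numbered 2 (Thy1 higher, 1 lower), 0, 5 (all lower), 0 and 3 (all lower), in the order of the lists above. Of all genes tested 16.1% had such a p in either direction. Stellate and fibroblast markers summed to 30251 and 14748 in controls and 22596 and 10724 in DKO livers. Both groups thus spanned a wide range in this sum, with replicate 1 the higher of each group. Not every marker of the list went this way: Col1a2 read 9.57 and 9.83 in control replicates 1 and 2. The erythroid sum was 70013 and 75986 against 35850 and 35306. All 5 of its markers had both DKO values below both control values, against 22.8% of all genes tested. Macrophage markers summed to 7584 and 4914 against 4959 and 4388. The part of these cells in the levels of the Wnt genes was not tested.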

How the data were processed

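Total RNA was extracted with the RNeasy Mini kit, amplified and labelled with biotin (Illumina TotalPrep). The authors deposited linear intensities per probe without normalization and, beside each, a detection p-value. A further table holds normalized intensity of these arrays. For its normalization, the scanner software and the background step: not given in the sources used here. That table kept each array's order (Spearman's rho 1) and its sorted values differed by at most 3.92 from their common mean.

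Background was corrected by normexp in limma 3.58.1 (R 4.3.3), using the detection p-values in place of negative-control probes and an offset of 16, which pulls changes of dim probes toward 0. Quantile normalization and log2 transformation followed. Probes detected on at least 2 of the 4 arrays (13654) were compared by lmFit and eBayes, two-sided, with Benjamini-Hochberg adjustment over all of them at 0.05. For each gene the tested probe of highest mean log2 intensity was used. Of 25697 probes 23978 had 1 gene symbol in the platform's annotation, 0 several and 1719 none, and 23962 matched RefSeq (GRCm38.p6). The number of arrays limits the precision: the median SE was 0.37 and the smallest change that passed was 1.68. The fit was tested on simulated data.

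Replicate numbers came from the titles; the description field numbers both controls 1 and both DKO arrays 2. Members were named in full where they passed the threshold, had an unadjusted p under 0.05 or a change of at least 1, or were Axin2, Lgr5 or Glul, and up to 8 genes per direction or the 2 largest changes were named from the other lists. The members and lists were chosen with earlier results of these data known.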

Additional observations from a re-analysis of the deposited data

How the results depend on the processing

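The count of Wnt module genes higher in DKO livers (2) was 0 without background correction, with the authors' normalized values, with all probes tested, with probes detected on all 4 arrays (9 members tested) and by the methods' t-test, unadjusted or adjusted. It was 1 with 75th percentile scaling, 3 with the mean of a gene's probes, 4 with the replicate block and 0 to 2 when 1 array was left out. Without background correction the change of Wnt4 was 1.33 (adjusted p = 0.0661) and that of Wnt7b 1.60 (0.102). In every setting tried 0 members passed as lower. The methods' t-test was paired by replicate number and rested on 2 differences per gene, so it had little power. The numbers are not known to pair the livers. Genes of the wider pathway passed as higher (0) in 5 cases with the replicate block, 1 with the mean of a gene's probes, 2 by the unadjusted t-test and 0 to 3 with 1 array left out. As lower (2), 0 passed without background correction, with the authors' values, all probes, probes detected on all 4 arrays and the adjusted t-test, 1 with an offset of 50, the mean of probes and the unadjusted t-test, and 0 to 1 with 1 array left out. Of zonation genes lower (8), 2 passed with all probes, 4 with probes detected on all 4 arrays, 14 with the replicate block, 5 and 0 by the t-test, unadjusted and adjusted, and 5 to 11 with 1 array left out. All genes called (326) numbered 137 without background correction, 158 with the authors' values, 41 with all probes, 180 with probes detected on all 4 arrays, 1352 with the replicate block, 962 and 2 by the t-test, unadjusted and adjusted, and 117 to 529 with 1 array left out. The share of calls that were higher, 50.9%, was 36.6% with all probes and 42.3% by the unadjusted t-test. Wnt7b, Wif1, Amer2, Cyp2e1, Cyp2c37, Nr1i3 and Hsd17b6 had no probe detected on all 4 arrays. They were not tested in the setting that asked for such probes, so its counts say nothing about them. The cause of the other differences between settings was not tested.

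With 1 array left out, changes turned sign for Fzd1 (-0.28 to 0.91), Glul (-0.95 to 0.82), Lrp6 (-0.69 to 0.0387), Tcf7l2 (-0.15 to 0.0878) and Wnt2 (-0.24 to 0.35). Such a fit leaves 1 array in a group, which is assumed to vary like the other group. Deviations of same-numbered arrays correlated at 0.54 over tested probes, but the numbers are not known to pair the livers. Under the replicate block Wnt7a (adjusted p = 0.00169) and Fzd7 (0.025) passed besides Wnt4 and Wnt7b. A second probe was compared only after the data were seen.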
